A study of Homo sapiens with 30 samples.

Results

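The regions described here are 427 stretches of chromatin that were more accessible in HNF6 knockout cells than in control cells at 2 successive stages of pancreatic differentiation, definitive endoderm (DE) and primitive gut tube (GT). They were chosen by the authors' calls: each is an autosomal region of the knockout DE list that shares at least 1 base with a region of the knockout GT list. The autosomal knockout DE list holds 11810 regions, so the 427 are 3.62% of it, and the other 11383 serve as the background. Seen from the GT side, 422 of 7500 autosomal regions were overlapped, or 5.63%. Most of what was higher in the knockout at DE was therefore not listed in the same direction at GT, and the reverse. The opposite direction gives a measure for these shares. Of the 2783 autosomal regions of the control GT list, 172 were overlapped by a knockout DE region, or 6.18%. A GT region of the opposite direction thus met a knockout DE region about as often as one of the same direction did. Counted by DE regions, 175 of the 11810 met the control GT list and 427 met the longer knockout GT list. No share of overlap is therefore read as persistence of a difference.

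HNF6, also called ONECUT1, is a homeodomain transcription factor of the liver and pancreas that acts early in the pancreatic lineage. Definitive endoderm is the germ layer that forms under Nodal or activin signalling and gives rise to the gut, liver and pancreas, and the primitive gut tube is the epithelial tube that follows it and from whose foregut part the pancreas buds. Accessible chromatin marks promoters, enhancers and insulators, and it is read in ATAC-seq by a transposase that cuts open DNA.

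The cells were HUES8, a human embryonic stem cell line, either wild type (control) or with the genotype HNF6-Knockout, differentiated in vitro. Accessibility was measured in 30 samples, 3 for each genotype at each of 5 stages: ESC (undifferentiated), DE, GT, PE (pancreatic endoderm) and PP (pancreatic progenitors). Nothing in the labels tells if the 3 samples within a group come from separate differentiations, how many knockout clones there were, or how the gene was disrupted. The spread between samples may therefore reflect technical variation only, and differences between the 2 cell lines and effects of the missing factor cannot be told apart. Each listed region carries 3 values for knockout and 3 for control cells, whole numbers whose scaling is not stated and whose order is not matched to replicate numbers. The depth of each library is unknown. Positions are on hg19; no annotation or sequence of that build was used here, so no region is given a gene.

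At DE the knockout values of the 427 regions were moderately higher. The 3 knockout values had medians over the regions of 497, 394 and 410, and the 3 control values 288, 255 and 274. At GT the medians over the 422 overlapped regions were 391, 363 and 413 in knockout against 238, 244 and 243 in control cells. The ratio of knockout to control, computed on the log2 scale with 1 added to each mean, had a median of 0.66 at DE (a 1.58-fold difference) and 0.71 at GT (1.64-fold). Single regions ranged from 0.30 to 3.16 at DE and from 0.28 to 1.96 at GT. These differences are what the regions were chosen for and are given as a description, with no test.

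The shared regions had smaller ratios than the rest of their lists, and higher signal per region. The other knockout DE regions had a median log2 ratio of 0.83 with median knockout and control means of 267.3 and 150.3, against 440.3 and 277 in the shared regions. The other knockout GT regions had a median log2 ratio of 1.07 with means of 178 and 83.7, against 403.3 and 241.5. The shared regions were also wider, with median widths of 1500 against 1000 bases at DE and 1500 against 800 at GT. Per kb the medians lay closer together. At DE they were 279.5 (knockout) and 179.1 (control), against 251.1 and 142.1 in the other regions. At GT they were 253.8 and 158.1, against 215.6 and 101.1. In the lists a low ratio goes with high signal. Over the shared regions the DE log2 ratio and the log2 of the control mean had a Pearson r of -0.89 (n = 427 regions, which share the same 6 libraries). Over the other regions r was -0.95 (n = 11383). No conclusion is drawn from these r values, because the control mean is also the denominator of the ratio. The lists are also cut by p, so a region of low signal can enter only with a large ratio. Where the control mean at DE was 317 or more, the top of 4 bands of about equal size, the shared regions had a median log2 ratio of 0.49 and the others 0.51. Where it was 70 or less, the bottom band, these were 1.29 and 1.42. At like signal the ratios of shared and other regions thus lay close together. Both sets passed the same cut by p at DE, so this closeness is given as a description only.

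Separation of the samples was common but incomplete. At DE all 3 knockout values lay above all 3 control values in 308 of the 427 regions (72.1%), beside 76.1% of the other knockout DE regions. At GT this held in 344 of the 422 regions (81.5%), beside 82.5% of the other knockout GT regions. Both stages were separated in 245 regions (57.4%), DE alone in 63, GT alone in 100 and neither in 19. For any 1 region the exact two-sided permutation p has a floor of 0.1 in this design of 3 values against 3. The sample values were uneven within the knockout sets: the first knockout value at DE was the highest of its set in 258 of 427 regions, and the third knockout value at GT in 251. The same values had the highest sums over both lists of their stage, and their part in the ratios was not tested. Divided by each sample's sum over both lists of its stage, a scaling that moves the median log2 ratio to 0.39 at DE and 0.43 at GT, knockout values lay above all control values in 156 of the 427 regions at DE (36.5%) and in 183 of the 422 at GT (43.4%). The other DE and GT regions fell as well under this scaling, to 45.7% and 56.6%.

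The ratios at DE and GT were related across the regions. Pearson's r was 0.52 and Spearman's rho 0.52 (n = 427 regions, a description without a test; the 2 stages share no libraries, while level and width of a region enter both). Both ratios belong to regions chosen by the rule and cut by p, so no conclusion is drawn from this relation. The ratios differed by less than 0.25 on the log2 scale in 300 regions (70.3%), and the DE ratio was the larger one in 174 (40.7%). A ratio of at least 2-fold was reached at both stages in 25 regions (5.85%) and at neither in 323 (75.6%).

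**Figure D1:**
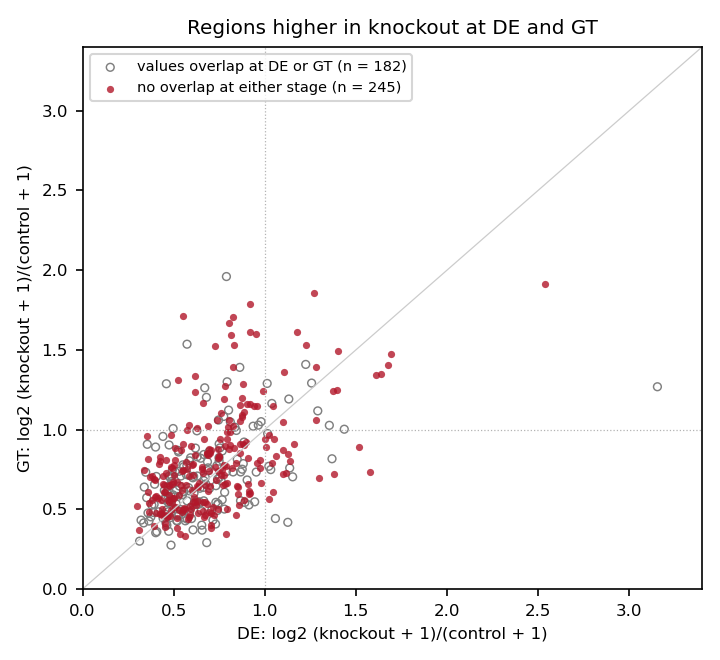
Log2 ratio of knockout to control mean, with 1 added to each, at DE (x axis) and GT (y axis) for the 427 shared regions. Filled points are the 245 regions whose knockout and control values did not overlap at either stage, dotted lines mark 2-fold, and the solid line marks equal ratios; most points lie below 2-fold on both axes and 1 filled point, on chromosome 22, lies far out on both.

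Ranked by the smaller of the DE and GT ratios among regions separated at both stages, the leading region lies on chromosome 22, from 18879801 to 18880300. At DE its values were 320, 257 and 192 in knockout against 34, 49 and 47 in control cells. In the GT list, from 18879901 to 18880300, they were 298, 306 and 348 in knockout against 86, 56 and 108 in control cells. The lowest knockout value was above the highest control value at both stages, with log2 ratios of 2.54 and 1.92, the largest at neither stage taken alone. The authors' deposited -log10 p was 33.3 at DE and 28.2 at GT.

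A region on chromosome 13, from 43725651 to 43726400, followed by the smaller of its 2 ratios. It had 150, 137 and 162 in knockout against 18, 40 and 79 in control cells at DE, and 163, 182 and 181 against 73, 55 and 59 at GT. The log2 ratios were 1.69 and 1.48. A narrow region on chromosome 15, from 69424351 to 69424750, had 85, 68 and 81 in knockout against 11, 29 and 31 in control cells at DE, and 134, 152 and 137 against 40, 52 and 66 at GT. In both regions each knockout value exceeded each control value at both stages.

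On chromosome 9, the stretch from 94718451 to 94719250 had 167, 153 and 289 in knockout against 123, 47 and 59 in control cells at DE, and 92, 119 and 126 against 32, 44 and 42 at GT. One control value at DE stood well above the other 2 and still below the knockout values. Chromosome 16 carried a region from 5646251 to 5646700 with 163, 50 and 89 against 25, 37 and 33 at DE and 204, 222 and 274 against 64, 106 and 103 at GT. Its DE knockout values spread over more than 3-fold, and its GT values lay closer together. Chromosome 4 carried 1 from 1214551 to 1214900 with 107, 45 and 89 against 28, 32 and 17 at DE and 100, 83 and 141 against 36, 42 and 48 at GT.

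Of the remaining 4 leading regions, 2 lie on chromosome 3. The region from 32378151 to 32378850 had DE and GT log2 ratios of 1.28 and 1.39, and that from 24270851 to 24271300 had 1.40 and 1.25. In the latter the GT control values were widely spread, at 44, 88 and 8, beside knockout values of 98, 111 and 128. Chromosome 1 held a region from 29168851 to 29169250 with ratios of 1.27 and 1.86, the latter from 46, 52 and 120 in knockout against 12, 28 and 18 in control cells. The region on chromosome 19 from 37742301 to 37743100 had 1.38 and 1.25. Except for the regions on chromosomes 22 and 19, none of these 10 was in a list of ESC, PE or PP, and none overlapped a wild-type cluster.

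**Figure D2:**
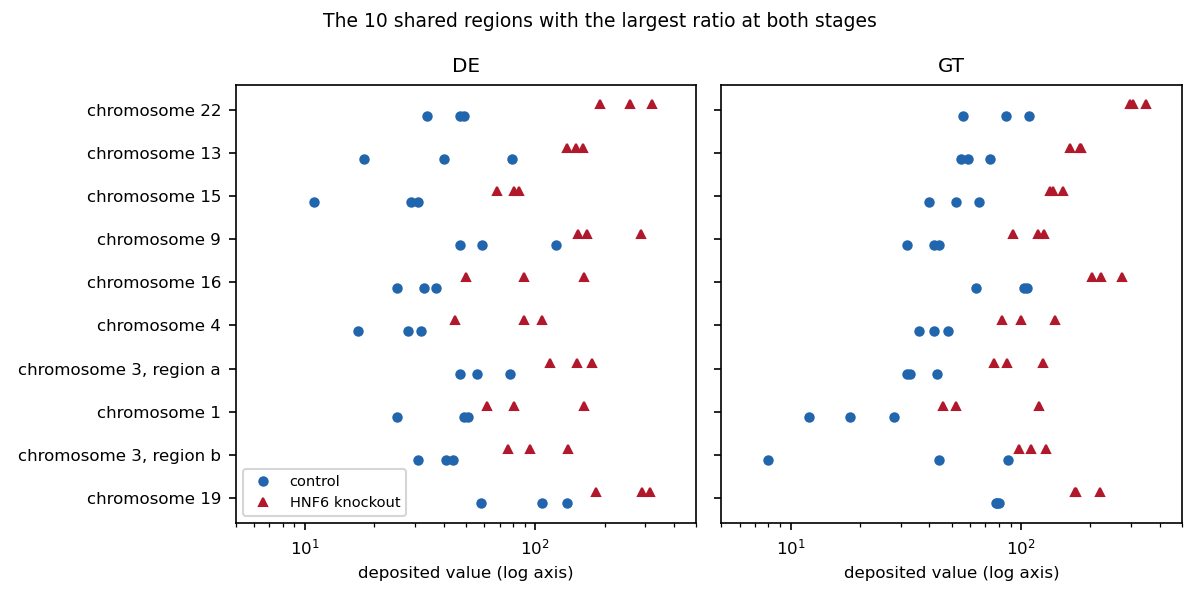
Deposited values on a log axis of the 10 shared regions with the largest smaller ratio among those separated at both stages, at DE (left) and GT (right), with 3 circles for control and 3 triangles for knockout samples. In each row the triangles lie to the right of all circles at both stages; regions a and b of chromosome 3 are those starting at 32378151 and 24270851.

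The regions with the most signal were wide and differed little. The 5 with the highest knockout mean at DE had log2 ratios between 0.31 and 0.47 at DE. The widest, on chromosome 22 from 19728701 to 19739100, had 3678, 2741 and 3071 in knockout against 2514, 2318 and 2527 in control cells at DE. Its GT region covers its right end, from 19737751 to 19740200, with 818, 651 and 872 against 567, 553 and 554. A second on chromosome 22, from 47052851 to 47062200, showed 2915, 2269 and 2709 against 1861, 2034 and 1784 at DE and 299, 330 and 452 against 191, 250 and 245 in a narrower GT region. In both, knockout values exceeded all control values at DE and at GT.

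The other 3 were less clean. On chromosome 17, from 74131801 to 74136750, the values overlapped at both stages, with 1577, 1723 and 2136 in knockout against 1628, 1741 and 1006 in control cells at DE, and 1547, 1263 and 2117 against 1449, 1287 and 1264 at GT. On chromosome 19, from 7972051 to 7977950, DE had 2057, 1803 and 1698 against 1399, 1774 and 1171, and GT 341, 110 and 261 against 118, 113 and 147. On chromosome 6, from 31742201 to 31747750, DE had 2132, 1642 and 1556 against 1344, 1197 and 1337, and GT 728, 717 and 888 against 549, 476 and 726. On chromosome 19 the genotypes overlapped at both stages, and on chromosome 6 only at GT, where 1 knockout value lay just below the highest control value. All 5 regions were also in the knockout PP list, and those on chromosomes 17 and 19 were in the control ESC list too. Where the control mean at DE was 317 or more, 33.9% of the shared and 22.1% of the other regions were in the knockout PP list. For the control ESC list these shares were 20.6% and 16.7%.

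The edge of the rule was narrow. The DE and GT regions of a pair shared a median of 800 bases, from 50 to 4050, and in 321 of the 427 regions (75.2%) at least 50% of the shorter one. In 146 (34.2%) one lay wholly within the other. Just inside the rule were 5 regions that shared only 50 bases with their GT region, on chromosomes 4, 9, 11, 14 and 16. The first, from 183824401 to 183825900, had a log2 ratio of 0.86 at DE and 1.05 in the GT region that starts at 183825851. Just outside were 10 background regions that abut a GT region with a gap of 0 bases. One of these, on chromosome 22 from 20175101 to 20176650, had 546, 444 and 463 in knockout against 254, 211 and 343 in control cells at DE, and its GT neighbour, from 20174351 to 20175100, had 316, 213 and 266 against 128, 169 and 165. In all, 218 background regions (1.92%) lay within 1 kb of a knockout GT region.

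Width set the regions apart from the rest of the DE list. Their median width was 1500 bases (quartiles 1000 and 2200), against 1000 (650 and 1600) for the other DE regions. The share of DE regions that were also listed at GT rose from 1.17% at widths of 150 to 650 bases to 2.83%, 4.14% and, at 1650 to 10400 bases, 6.53%. A wide region meets another list more readily, so widths stand beside the overlaps below.

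The stages that did not enter the choice gave further values. Of the 427 regions, 167 (39.1%) overlapped at least 1 list of ESC, PE or PP, beside 23.2% of the other knockout DE regions, and 260 were listed at no stage other than DE and GT. A region that is not listed at a stage has no deposited value there, so no level can be given for it. The knockout PP list, the longest, overlapped 97 regions, or 22.7% (95% Wilson interval 19.0 to 26.9), beside 10.9% of the other DE regions (10.3 to 11.5). The knockout PE list overlapped 35, or 8.20% (5.95 to 11.2), beside 3.98% (3.64 to 4.35). The control PE list overlapped 11, or 2.58% (1.44 to 4.55), beside 1.99%, and the control PP list 6, or 1.41% (0.65 to 3.03), beside 1.57%. The intervals cover counting error only, and regions are not replicates of a condition.

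Direction at the pancreatic stages was mostly the same as at DE and GT, in the other DE regions as well. Among the regions in 1 list of PP, 94.2% were in the knockout list (97 of 103), and among the other DE regions 88.0% were. At PE these shares were 76.1% (35 of 46) and 66.9%. The knockout and control lists differ in length, with 24647 and 3158 autosomal regions at PP and 5469 and 7046 at PE. The part of list length in these shares was not tested. In the 107 knockout PP regions that the shared regions met, the median log2 ratio was 0.83, from 0.36 to 2.16, beside 1.08 over the whole autosomal list. Of the 107, 91 were separated (85.0%), beside 79.3% of that list. In the 35 knockout PE regions met, the median was 0.64, from 0.25 to 2.48, beside 0.60 over the whole list, and 27 were separated (77.1%), beside 74.5%.

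At ESC more of the regions were listed in the opposite direction. The control ESC list overlapped 48 regions, or 11.2% (8.58 to 14.6), beside 6.66% of the other DE regions, and the knockout ESC list 25, or 5.85% (4.0 to 8.50), beside 3.13%. Of the 69 regions in 1 list of ESC, 33.3% were in the knockout list, beside 31.4% for the other DE regions. The control ESC list holds 8516 autosomal regions and the knockout ESC list 11341. The part of list length was not tested here either. The ESC region also shared bases with the GT region in 35 of the 48 and in 19 of the 25. In the others it met a different portion of the DE region. The median log2 ratio of knockout to control was -0.64 over the 50 control ESC regions met, beside -0.75 over that whole list. Of the 50, 30 were separated (60.0%), beside 73.8% of the list. Separation with knockout higher at DE and control higher at ESC was found in 21 of the 427 regions (4.92%), beside 3.62% of the other DE regions. With PE in place of ESC it was found in 5 (1.17%, beside 1.27%), and with PP in 5 (1.17%, beside 0.887%). These shares were near those of the other DE regions.

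**Figure D3:**
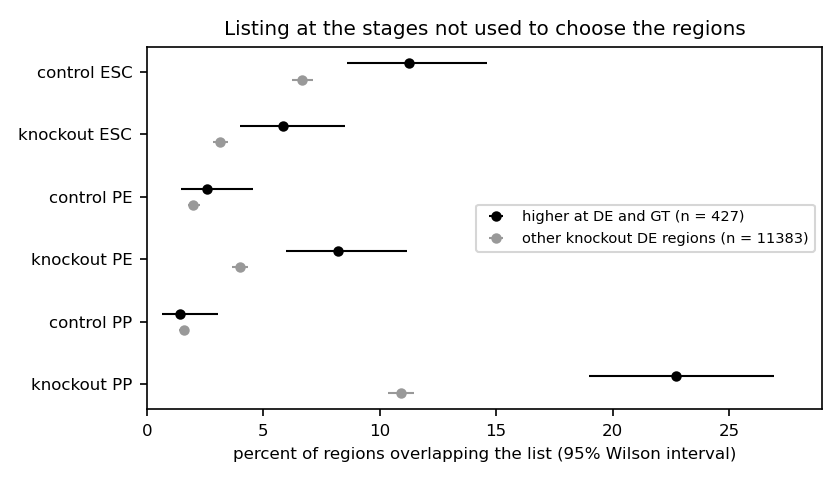
Percent of the 427 shared regions (black) and of the 11383 other knockout DE regions (grey) that overlap each list of ESC, PE and PP, with 95% Wilson intervals that cover counting error only. The black point lies to the right of the grey one in 5 of the 6 lists, most of all for knockout PP (22.7% and 10.9%), and slightly to the left for control PP.

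These shares moved with width. For the knockout PP list the shared regions had the larger share in each of the 4 width bands. At 650 bases or less that list held 3 of 37 shared regions (8.11%), beside 2.87% of the others. For the control ESC, knockout ESC and knockout PE lists the order changed between bands. Among the DE regions of 1650 bases or more, 31.2% of the 189 shared ones were in the knockout PP list beside 21.0% of the others, and 11.6% beside 9.16% in the knockout PE list. For the control ESC list the shares there were 20.1% and 15.0%, and for the knockout ESC list 4.76% and 5.32%, the reverse of the order over all widths. Among those of 650 bases or less the knockout ESC and knockout PE lists each held 4 of 37 shared regions (10.8%), beside 0.99% and 0.83% of the others, and the control ESC list held none of the 37, beside 0.99%. Between these, at 1050 to 1600 bases, the knockout PE list held a smaller share of the 121 shared regions than of the others (3.31% and 4.43%). The shares there lay close together for the knockout PP list (14.9% and 13.3%) and for the control ESC list (7.44% and 7.36%). At 700 to 1000 bases the knockout PP list held 21.3% of 80 shared regions and 7.62% of the others, and the control ESC list 1.25% and 4.19%.

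In the knockout direction the overlaps with ESC, PE and PP fell partly on the same regions. At least 2 of these 3 knockout lists were met by 24 regions (5.62%), beside 1.92% of the other DE regions. All 3 were met by 7 regions (1.64%), beside 21 of the 11383 others (0.18%), so that these 7 were listed as higher in the knockout at each of the 5 stages. In 5 of them, on chromosomes 5, 10, 18, 19 and 22, the regions of all 5 stages had 350 to 750 bases in common. In the other 2, on chromosomes 6 and 8, no base was common to all 5.

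The chromosome 22 region starting at 18879801, given above, had 182, 196 and 335 in knockout against 185, 33 and 105 in control cells at ESC. One control value there lay above 1 knockout value. At PE it had 232, 279 and 225 against 42, 95 and 53, and at PP 257, 307 and 334 against 90, 80 and 29. Its log2 ratio was 1.14 at ESC, 1.94 at PE and 2.16 at PP, against 2.54 at DE and 1.92 at GT.

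The chromosome 19 region starting at 37742301 had 184, 291 and 314 in knockout against 137, 107 and 58 in control cells at DE, and 174, 220 and 172 against 79, 78 and 80 at GT. At ESC it had 315, 454 and 432 against 100, 166 and 97. At PE it had 385, 414 and 460 against 82, 76 and 65, and at PP 297, 426 and 547 against 69, 103 and 202. No knockout value overlapped a control value at any stage, and the log2 ratio was largest at PE (2.48) and smallest at GT (1.25).

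The region on chromosome 10 from 38383151 to 38383850 had 210, 263 and 218 in knockout against 190, 73 and 83 in control cells at DE, and 289, 331 and 234 against 68, 77 and 215 at GT. In each stage 1 control value came close to the knockout values. At ESC the values were 369, 399 and 423 against 137, 110 and 124, at PE 298, 302 and 455 against 104, 107 and 73, and at PP 348, 261 and 372 against 116, 113 and 65. The ratio was thus smaller at DE (log2 0.99) and GT (1.24) than at ESC (1.67), PE (1.88) and PP (1.73).

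Chromosome 18 had a region from 14430951 to 14431600 with 203, 253 and 134 in knockout against 61, 60 and 83 in control cells at DE, and 277, 295 and 280 against 112, 194 and 151 at GT. It was separated at ESC, PE and PP as well, with log2 ratios of 1.35, 1.13 and 1.12. On chromosome 5, between 115298101 and 115299300, DE values were 375, 363 and 333 against 252, 226 and 158, and 229, 266 and 236 against 176, 120 and 113 at GT. From ESC to PP its log2 ratios were 0.83, 0.75, 0.83, 1.13 and 1.60.

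The region on chromosome 8 from 143819101 to 143821300 had 666, 665 and 812 in knockout against 498, 349 and 373 in control cells at DE, and its GT region, at its left end, had 144, 200 and 180 against 110, 76 and 77. It overlaps wild-type cluster 1. Its ratios at ESC, PE and PP were 0.79, 0.89 and 1.13 on the log2 scale. The chromosome 6 region starting at 31742201, described above among those with the most signal, met separate, narrower knockout regions at ESC and PE and 2 at PP.

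**Figure D4:**
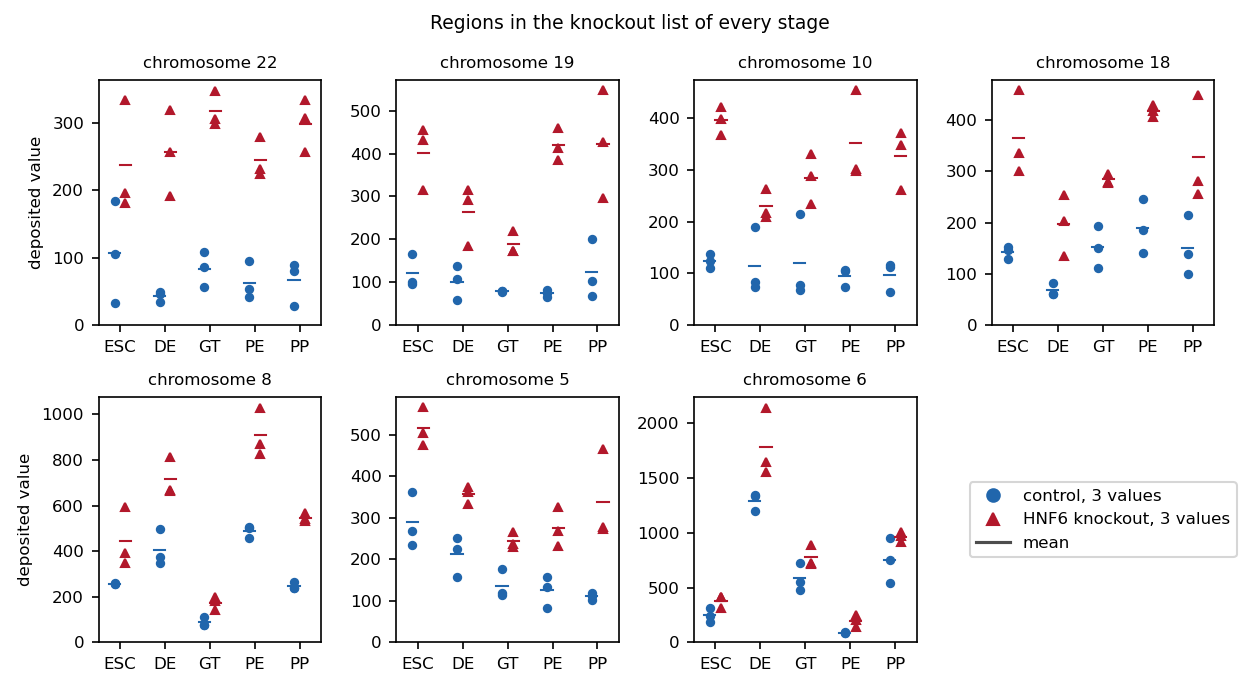
Deposited values at the 5 stages of the 7 regions that are in the knockout list of every stage, with 3 circles for control samples, 3 triangles for knockout samples and short lines for the means. Stages are drawn on 1 linear axis per region, but each stage has its own region boundaries, so heights compare genotypes within a stage and not stages; in the chromosome 19 panel no triangle reaches a circle at any stage, while in the chromosome 22 panel they overlap at ESC.

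Few of the regions also met the list of the other direction at GT. Of the 427 regions, 2 (0.47%) met the control GT list with another portion, beside 1.52% of the other DE regions. By the rule each of the 427 already overlaps a knockout GT region, which leaves less of it to meet a control GT region. The other DE regions have no such limit, so these shares are not alike and no conclusion is drawn from them. One lies on chromosome 1 from 4772551 to 4774550 and the other on chromosome 11 from 69979151 to 69982900. None met the control DE list, and neither did any of the other knockout DE regions.

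The deposited wild-type clusters, 9 groups of peaks of 500 bases whose accessibility profiles are not known here, held few of the regions. In all, 49 of the 427 (11.5%, 95% Wilson interval 8.79 to 14.8) overlapped a cluster region, beside 9.66% of the other DE regions. Clusters are numbered here by the name each was deposited under, which differs from the number given inside it. Cluster 1 held 12 (2.81%, beside 1.96%), clusters 6 and 8 held 8 each (1.87%, beside 1.5% and 1.06%), and cluster 7 held 7 (1.64%, beside 2.07%). The remaining 5 clusters held 1 to 4 each. The 49 were wider and had more signal than the rest, with a median width of 2050 against 1450 bases and a median control mean at DE of 532 against 248.3, and their median log2 ratio at DE was 0.50 against 0.67. Among DE regions of 1650 bases or more, 16.9% of the shared and 21.1% of the other regions overlapped a cluster, the reverse of the order over all widths.

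The 3 regions of the clusters with the largest smaller ratio, singled out after their values were seen, were separated at both stages. The region on chromosome 1 from 62744801 to 62745700, in cluster 8, had 227, 303 and 182 in knockout against 118, 105 and 161 in control cells at DE, and 133, 164 and 155 against 38, 77 and 93 at GT. On chromosome 6, 43815201 to 43816500, also in cluster 8, held 416, 256 and 227 against 155, 118 and 220 at DE and 141, 89 and 168 against 84, 17 and 76 at GT. Chromosome 14, 101564651 to 101565550, in cluster 2, had 472, 321 and 358 against 197, 147 and 304 at DE and 54, 62 and 100 against 45, 10 and 9 at GT. In the last 2 the lowest knockout and the highest control value came close together.

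The regions were unevenly spread over the chromosomes. Chromosomes 22, 17 and 11 held 51, 50 and 45 of the 427. Chromosome 22 had 11.9% of the shared regions and 7.14% of the DE list, chromosome 17 had 11.7% and 4.51%, and chromosome 11 had 10.5% and 8.54%. Chromosome 1, with 12.2% of the DE list, held 22 (5.15%). The share of a chromosome's knockout DE regions that were also listed at GT ran from 0.69% on chromosome 7 (4 regions) to 9.38% on chromosome 17. From the GT side it ran from 2.03% on chromosome 13 to 18.3% on chromosome 22.

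The balance of directions differed between these chromosomes too. Over all autosomes, 11810 of the 18814 regions listed at DE were higher in the knockout, and 7500 of 10283 at GT. On chromosome 22, 95.1% of all regions listed at DE were higher in the knockout, and 78.7% at GT. On chromosome 17 these shares were 71.1% and 93.8%, and on chromosome 7 they were 58.4% and 25.2%. The part of this balance in the spread of the shared regions over chromosomes was not tested. The ratios of the shared regions differed little between the leading chromosomes, with median log2 values at DE of 0.57 on chromosome 22, 0.58 on 17 and 0.55 on 11. Of the 97 regions also in the knockout PP list, 15 were on chromosome 22 and 15 on 17, which hold 51 and 50 of the 427. Of the 48 also in the control ESC list, 10 were on chromosome 17.

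**Figure D5:**
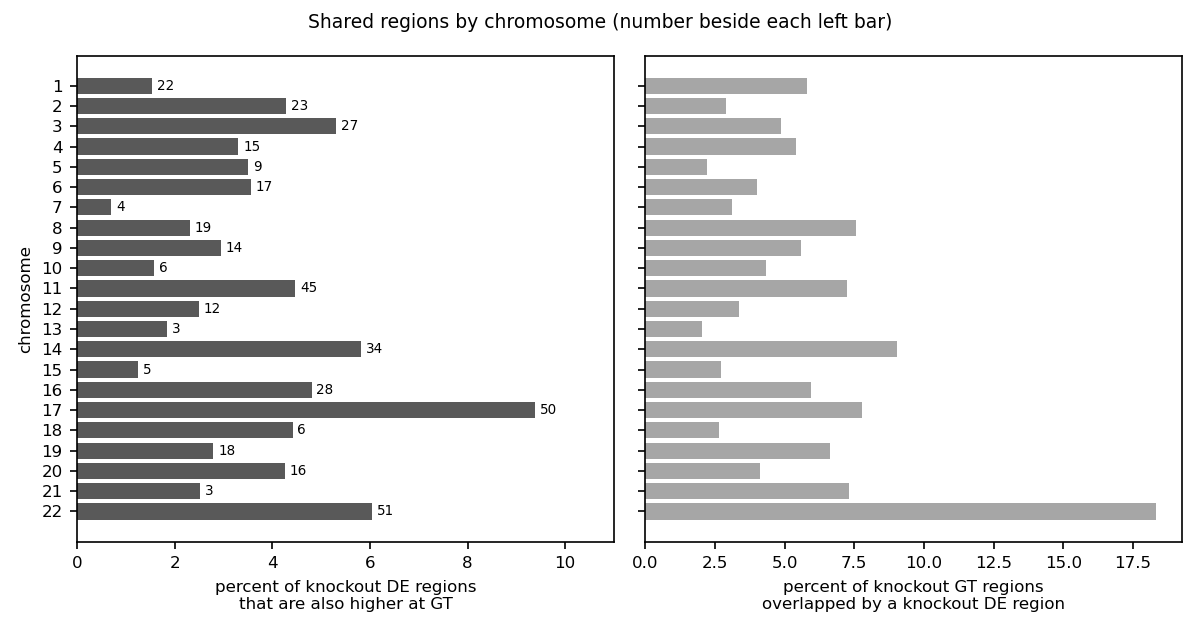
For each autosome, the percent of knockout DE regions that were also listed as higher at GT (left, with the number of shared regions beside the bar) and the percent of knockout GT regions overlapped by a knockout DE region (right). Chromosome 17 has the longest left bar (9.38%) and chromosome 22 the longest right bar (18.3%).

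Some of the regions were neighbours. Of the 427, 125 (29.3%) lay within 100 kb of another, in 53 runs, of which 38 were pairs. Closeness was general in the DE list: 90.6% of the shared and 80.3% of the other regions lay within 100 kb of some knockout DE region. The longest run had 5 regions on chromosome 17 between 79254251 and 79438200, a stretch of 183950 bases. Their DE log2 ratios lay between 0.47 and 0.64 and their GT ratios between 0.44 and 0.68. The first of them, from 79254251 to 79256750, had 747, 433 and 505 in knockout against 370, 424 and 406 in control cells at DE. The second, from 79312101 to 79314850, had 804, 1001 and 1065 against 594, 515 and 735.

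Runs of 4 lay on chromosome 22, between 46321551 and 46397900, and on chromosome 3, between 52323701 and 52396050. The chromosome 22 run held a region of 5050 bases, from 46357751 to 46362800, with 1753, 1493 and 1589 in knockout against 1120, 1191 and 1176 in control cells at DE, and 591, 652 and 719 against 347, 496 and 582 at GT. On chromosome 3, between 52360101 and 52361800, DE values were 506, 455 and 439 against 329, 264 and 343, and 1765, 1402 and 1724 against 1222, 1249 and 1127 over a wider GT region. At ESC part of that region was listed in the opposite direction, with 127, 80 and 191 in knockout against 228, 273 and 238 in control cells. The regions of a run need not be independent of each other.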

How the data were processed

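Chromatin accessibility was measured by ATAC-seq in 30 samples of HUES8 cells, 3 per genotype and stage. The submitters' processing notes name hg19, Bowtie2 and MACS2 without roles. The scaling, the differential caller and any shift of reads for the transposase are not stated there. The deposited lists give, per region, 3 knockout and 3 control values (whole numbers, not stated to be counts), a log2 ratio and a −log10 p (5 or more), all made by the authors. The log2 values were recomputed from the sets with 1 added to each mean. In each list the set that is higher throughout was read as the genotype the list is named for. Cluster files hold positions.

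Overlaps of at least 1 base were computed in Python 3.11.15 (pandas 2.3.3), tested on simulated intervals and checked against bedtools 2.31.1, which also found 427 regions. Regions on X, Y and the mitochondrial genome were left out (93 at DE, 24 at GT). No count model, enrichment test or p-value of an own test was used. Regions named with values follow a rule: the 10 with the largest smaller ratio among those separated at both stages, the 5 with the highest knockout mean at DE, those in the knockout lists of all 5 stages, and those at the edge of the overlap. The regions of the clusters and runs were added after their values were seen. The regions, rules and lists were chosen with earlier results of these data known. Gene positions, gene groups and sequence features were planned and not run, since no hg19 annotation or sequence was used here. Alternatives were tried for the overlap, the p threshold, separation of values, neighbours, chromosomes, width, pseudocount, scaling and left-out samples.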

Additional observations from a re-analysis of the deposited data

Results flagged for a closer look

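Regions that were separated in one direction at DE and GT and in the other at another stage were flagged. Counted without GT, their shares were near those of the other DE regions, and the difference between the stages was not tested. In 17 of the 427 regions the control values all lay above the knockout values at ESC and below them at DE and GT. The other DE regions have no GT region to compare, but without the GT condition the ESC count was 21 (4.92%), beside 3.62% of the other DE regions. On chromosome 20, for example, the DE region from 32861751 to 32862900 had log2 ratios of knockout to control of 0.70 at DE and 0.85 at GT, and the ESC region inside it had 119, 69 and 75 in knockout against 187, 156 and 186 in control cells. Control values were likewise the higher ones at PE in 4 regions. Without the GT condition there were 5 (1.17%), beside 1.27% of the other DE regions. At PP this was so in 5 regions with or without that condition (1.17%, beside 0.887%), among them chromosome 11, 116707801 to 116709800, with 919, 872 and 956 in knockout against 1149, 1231 and 1240 in control cells at PP. Where the region at that other stage is narrower, it may cover another portion of the DE region.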

How the results depend on the processing

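The number of shared regions depended on the definition: 263 with the midpoint of the DE region in a GT region, 152 in the upper part of both lists by p, 247 if restricted to separated regions, and 199 with 1 DE region per 100 kb block. With DE regions cut to 500 bases at the centre, the shares in the control ESC, knockout ESC and knockout PP lists were 8.20%, 3.51% and 15.0% (other DE regions 4.77%, 2.15% and 7.72%), and that in any cluster 6.56% (6.29%). Among regions of 1650 bases or more, added after seeing the data, they were 20.1% for control ESC (15.0%), 11.6% for knockout PE (9.16%), 31.2% for knockout PP (21.0%) and 16.9% for any cluster (21.1%). In the upper part by p, knockout ESC had 10.5% (3.51%) and control PE 4.61% (2.29%). The share of shared regions stayed above that of the other DE regions in all 9 alternatives for control ESC, control PE, knockout PE and knockout PP, in 8 for knockout ESC and in 4 for control PP. The median width was 1300 with the midpoint and 1750 in the upper part by p. Near another shared region lay 23.2% at 50 kb and 53.6% at 500 kb.

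Knockout sums over both lists of a stage were 1.20 times the control sums at DE and 1.21 times at GT. Divided by each sample's sum, the median log2 ratio fell to 0.39 at DE and 0.43 at GT. The knockout mean then was higher at DE in all 427 regions. With each of the 427 taken with its GT region, it was higher at GT in 426. The values were separated in 156 of the 427 regions at DE and in 183 of the 422 distinct GT regions. These sums hold differential regions only, so the right scaling is not known. Leaving out 1 sample value gave 0.55 to 0.72 at DE and 0.61 to 0.75 at GT. Of 97 alternative values, 20 moved and are given here. The other 77 stayed close: within 1.5 times for the number of regions, within the 95% interval for shares and the median width, and within 1 SD between the knockout samples for ratios. Other distances to a gene start and another sequence window were not run, since no hg19 annotation or sequence was used. No paired analysis was possible because the order of the deposited values is not matched to replicate numbers and no test was made. Depth is unknown and limits every region's precision.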
